A study of Mus musculus with 6 samples.

Results

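The clustered protocadherins were described by RNA-seq of 6 libraries from the mouse line GC-1 spg, type B spermatogonia that were immortalised for culture. The members were the gene rows whose symbol starts with Pcdha, Pcdhb or Pcdhg, which gave 58 of the 57180 rows of the deposited table: 14 in the alpha cluster, 22 in the beta cluster and 22 in the gamma cluster. They were chosen by symbol, and the family was taken up with earlier results of these libraries known, so the p-values below describe the fit and are no independent support. The labels give 3 libraries with SNHG1 overexpression (Ov_SNHG1) and 3 with the vector alone (Vector), all profiled 24 hours after transfection, and all 6 carry the treatment label Non-obstructive azoospermia. The promoter and insert of the construct are not stated in these sources, nor is it said whether replicates were separate cultures. The p-values therefore reflect only how these 6 libraries scatter, and that scatter may be technical.

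Clustered protocadherins are cadherin-type adhesion proteins best known from neurons, where each cell displays its own combination of isoforms and uses like-with-like binding to tell its own branches from those of other cells. Every alpha and gamma transcript joins a long variable exon of its own, which encodes the extracellular and transmembrane part, to short constant exons that all members of that cluster share and that encode the common cytoplasmic end. Beta genes are single variable exons with no constant part. Most variable exons have a promoter of their own, whose use depends on CTCF and cohesin, whereas the C-type genes at the end of the alpha and gamma clusters are used more uniformly by neurons.

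The libraries held 15521900 to 21095427 counts. A floor of 3 counts served as an approximate upper limit for a count of 0. It stood for 0.142 to 0.193 CPM (counts scaled to a library total of 1000000), without the TMM scaling of the other CPM values. Such floors cover counting error only. Snhg1 itself, which checks the labels, stood at 25.2 ± 1.19 CPM in Ov_SNHG1 and 23.0 ± 2.63 CPM in Vector (SD, n = 3), with an edgeR adjusted p of 0.52 and overlapping groups. The mouse gene thus gives no check of which libraries overexpressed SNHG1, and every direction below follows the labels alone. Markers of germ cells were nearly silent, with 7 of 12 listed genes at 0 counts in all libraries, Ddx4, Kit and Zbtb16 among them, and a summed level of 1.61 to 2.88 CPM. Markers of neurons had 8 of 12 genes at 0, Rbfox3, Map2 and Snap25 among them, and summed to 18.5 to 19.3 CPM in Ov_SNHG1 and 11.6 to 15.96 CPM in Vector, most of it Tubb3. Of 9 glial markers 4 were at 0, Aqp4 and Olig2 among them, with 1.71 to 3.43 CPM in all. Sertoli cell markers summed to 582 to 704 CPM, most of it Rhox5 at 511 to 642 CPM, with Wt1, Cldn11 and Fshr at 0. Leydig cell markers summed to 2.28 to 3.01 CPM, with Cyp17a1 and Lhcgr at 0. Mesenchymal markers summed to 18738 to 19615 CPM in Ov_SNHG1 and 22305 to 23733 CPM in Vector, although Thy1 and Lum were at 0. Within that list the collagen genes Col1a2 and Col3a1 and the transcription factor gene Prrx1 fell by 0.30, 0.52 and 0.37, and the growth factor receptor gene Pdgfra rose by 0.47 (log2; edgeR adjusted p = 0.00797, 0.0103, 0.045 and 0.0143). Blood cell markers summed to 42.0 to 48.2 CPM and 33.7 to 34.6 CPM. The part of these differences in the protocadherin values was not tested.

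The deposited table places all members on chromosome 18, and no build is named for its coordinates. In GENCODE M21, an annotation of GRCm38 matched by gene identifier, the gene models show how far the rows share sequence. Each alpha row shares 2860 to 2864 exonic bases with other alpha rows. Each gamma row shares 2116 to 3157 bases with other gamma rows, and 31.5 to 66.8% of its exonic length overlaps the exons of some other gene on the same strand. The 22 beta rows are single blocks of 2588 to 8695 bases, of which 20 share nothing, whereas Pcdhb21 and Pcdhb22 share 455 bases with each other. Reads from the constant exons fit every member of their cluster equally well, and how the deposited counting placed them is not stated in these sources. Differences between single alpha or gamma rows are therefore uncertain, whereas most beta rows stand for themselves as far as exons go, although they are similar in sequence.

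The alpha cluster was almost silent. Of its 14 rows, 12 had 0 counts in all 6 libraries, where the floor stood at 0.193 CPM in the shallowest library. Pcdhac2, one of the C-type members, had 0, 1 and 1 counts in Ov_SNHG1 replicates 1 to 3 and 0, 7 and 0 in Vector, and Pcdha7 had 3 counts in Ov_SNHG1 replicate 1 and none elsewhere. No alpha row passed the filter on low counts, and the summed alpha counts of 0 to 7 per library allow no comparison.

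The beta cluster was broadly detected, and its tested rows varied less between libraries of a group than the tested gamma rows did. Of its 22 rows, 21 had counts, and 19 passed the filter on low counts. Levels per length of these 19 rows differed widely, with mean FPKM (counts per kilobase of gene length and per 1000000 counts) over the 6 libraries from 0.264 for Pcdhb6 to 7.61 for Pcdhb5. Pcdhb5 (chromosome 18, 37453434 to 37456968) stood at 8.42, 6.90 and 6.91 FPKM in Ov_SNHG1 and 7.90, 7.49 and 8.06 FPKM in Vector. Pcdhb16 (37610867 to 37616091) followed with 6.61, 5.34 and 5.39 FPKM against 6.52, 6.34 and 6.80 FPKM, and Pcdhb9 (37533908 to 37536962) with 5.10, 4.51 and 5.25 FPKM against 5.12, 5.19 and 5.94 FPKM. The order was Pcdhb5, Pcdhb16, Pcdhb9 and Pcdhb17 by mean FPKM, and the lowest Pcdhb5 value lay just above the highest Pcdhb16 value, whereas the library ranges of the other neighbours in this order overlapped. In cultured cells sampled in bulk, fewer cells that express a gene and less RNA per cell cannot be told apart. Pcdhb17 stood at 22.7, 18.1 and 18.7 CPM in Ov_SNHG1 and 22.7, 24.7 and 22.3 CPM in Vector. Pcdhb7 stood at 12.7, 11.1 and 10.4 CPM against 13.8, 12.5 and 14.1 CPM. In both, Ov_SNHG1 replicates 2 and 3 lay below every Vector library and replicate 1 did not.

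Pcdhb1 had no counts in any library, and Pcdhb13 had 2 to 10. Pcdhb21 had 255 counts in Ov_SNHG1 replicate 2 and 0 in each of the other 5 libraries. Pcdhb22, with which it shares an end, stood at 15.87 CPM in that library, the lowest of the 6, and at 16.04 to 18.52 CPM in the others.

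**Figure D1:**
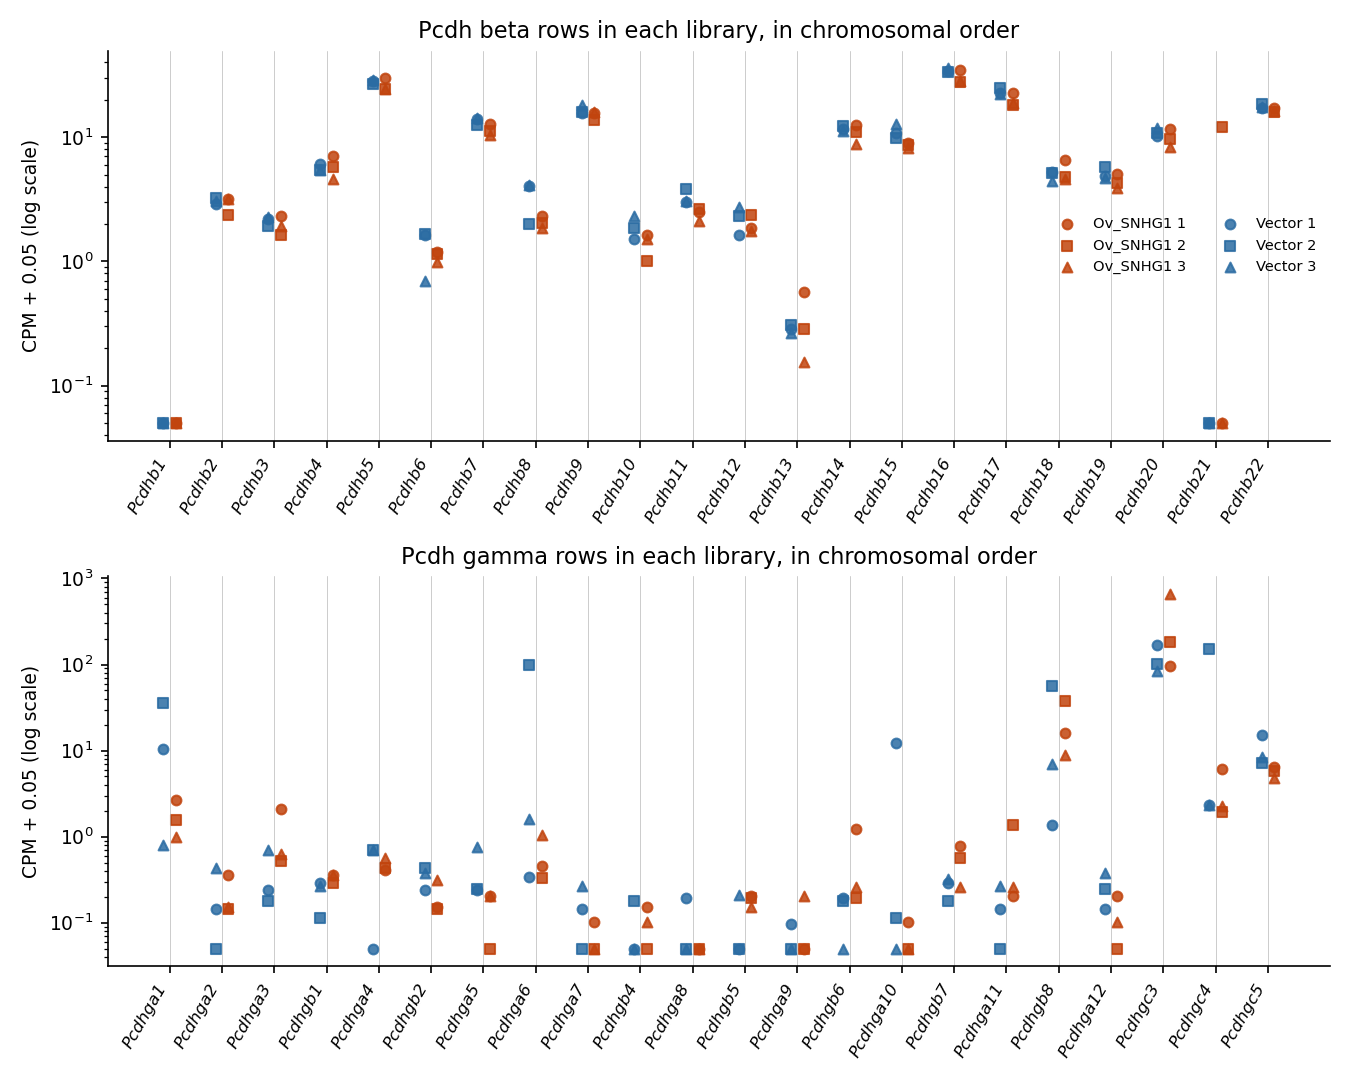
Level of each beta (top) and gamma (bottom) row in each of the 6 libraries, as CPM plus 0.05 on a log axis, with rows in chromosomal order; colours mark the group and symbols the replicate, and the lowest points are rows with 0 counts. Most beta rows form tight sets of 6 points, with wider sets for Pcdhb6, Pcdhb8, Pcdhb13 and Pcdhb21, whereas gamma rows such as Pcdhga6, with 1540 counts in Vector replicate 2 against 6 to 29 elsewhere, have single libraries far from the rest.

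In the gamma cluster one C-type gene held most of the counts in 5 of the 6 libraries. Pcdhgc3 (ENSMUSG00000102918, chromosome 18, 37939417 to 37974926) had 1874, 3872 and 12710 counts in Ov_SNHG1 replicates 1 to 3 and 3507, 1553 and 1554 in Vector. These are 96.3, 184 and 660 CPM against 167, 100 and 84.3 CPM. The groups overlapped, and Ov_SNHG1 replicate 3 was the library that stood apart. Pcdhgc3 had the highest mean FPKM of the 58 rows, 32.9 ± 31.9 in Ov_SNHG1 and 12.3 ± 4.57 in Vector (SD, n = 3).

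Several other gamma rows were low in most libraries and high in 1 or 2. Pcdhgc4 (37948132 to 37974926), another C-type gene, had 118, 40 and 43 counts in Ov_SNHG1 and 48, 2361 and 42 in Vector. Pcdhga6 (37840092 to 37974926) had 8, 6 and 19 against 6, 1540 and 29. Pcdhga1 (37794846 to 37974926), the first gene of the cluster, had 51, 32 and 18 against 219, 555 and 14. Vector replicate 2 was the highest library in all 3, and Vector replicate 3 lay within or below the Ov_SNHG1 range in Pcdhgc4 and Pcdhga1.

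Pcdhgb8 (37894854 to 37974923) had 311, 795 and 169 counts in Ov_SNHG1 and 28, 882 and 129 in Vector, so both groups held high and low libraries. This row is annotated as protein coding in the deposited table and as a polymorphic pseudogene in GENCODE M21. Pcdhga10 had 256 counts in Vector replicate 1 and 0 or 1 in the other 5 libraries. The C-type gene Pcdhgc5 (37952566 to 37974926) was the steadiest of the abundant gamma rows, with 6.42, 5.75 and 4.72 CPM in Ov_SNHG1 and 15.0, 7.16 and 8.47 CPM in Vector. Its groups did not overlap. Among the 22 gamma rows 14 did not pass the filter, with at most 258 counts over all libraries. Pcdhga11 had 28 of its counts in Ov_SNHG1 replicate 2 and 0 to 4 elsewhere, and Pcdhgb6 had 23 in Ov_SNHG1 replicate 1 and 0 to 4 elsewhere.

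The split of gamma counts between rows differed between libraries far beyond counting error. Pcdhgc3 took 72.0 to 79.4% of the gamma counts in 4 libraries. It took 97.0% in Ov_SNHG1 replicate 3 (95% Wilson interval 96.7 to 97.3%, counting error only) and 22.1% in Vector replicate 2 (21.1 to 23.1%). In that Vector library Pcdhgc4 took 33.6% (32.5 to 34.7%) and Pcdhga6 21.9% (20.9 to 22.9%), against at most 4.54% and 1.45% elsewhere. The Pcdhgc3 level of that library lay between those of Vector replicates 1 and 3, so its low share there came with high counts of other rows.

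**Figure D2:**
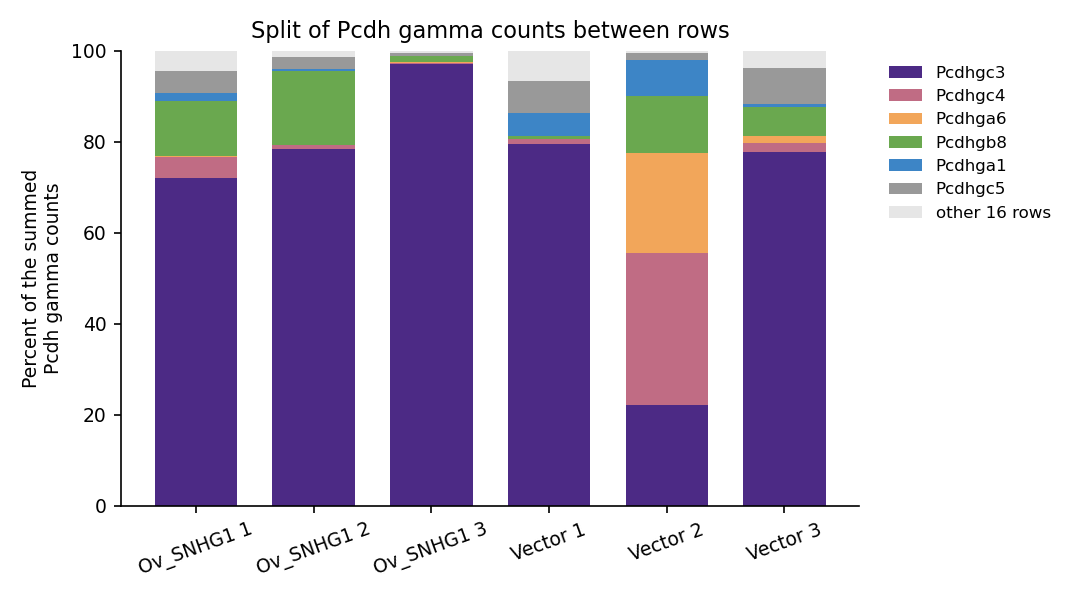
Percent of the summed gamma counts of each library that fell on each of 6 rows, with the other 16 rows together in light grey. Pcdhgc3 holds 72.0% or more in every library except Vector replicate 2, where it holds 22.1% and Pcdhgc4 33.6%.

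Summing each cluster removes the uncertainty of how reads were split within it. It does not cover reads counted more than once, left uncounted or placed on overlapping rows outside the members. The summed beta level was 199, 180 and 165 CPM in Ov_SNHG1 and 197, 197 and 205 CPM in Vector. Ov_SNHG1 replicates 2 and 3 were below all Vector libraries, and replicate 1 lay among them. The log2 fold change was -0.14 ± 0.07 (SE, 95% interval -0.31 to 0.034), with an edgeR adjusted p of 0.384 when the cluster sums took the place of their rows in the table of all genes. Without Ov_SNHG1 replicate 1 it was -0.21 and without Ov_SNHG1 replicate 3 it was -0.072, with edgeR adjusted p of 0.0934 and 0.709.

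The summed gamma level was 134, 235 and 680 CPM in Ov_SNHG1 and 210, 454 and 109 CPM in Vector. The groups overlapped, and within a group the highest library exceeded the lowest 5.09-fold in Ov_SNHG1 and 4.18-fold in Vector, against 1.21-fold and 1.04-fold for beta. The log2 fold change was 0.44 ± 0.65 (SE, 95% interval -1.05 to 1.93), with an edgeR adjusted p of 0.759. It was -0.48 without Ov_SNHG1 replicate 3 and 1.13 without Vector replicate 2, and 0.071 without Vector replicate 3. The sum therefore gives no direction.

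**Figure D3:**
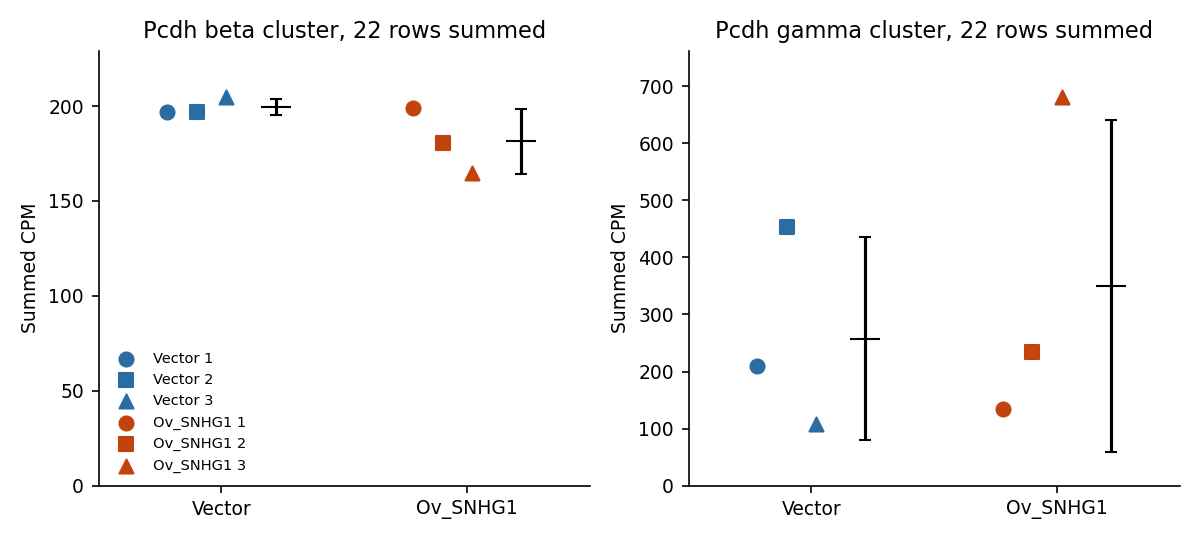
Summed CPM of the 22 beta rows (left) and 22 gamma rows (right) in each library, with the mean and SD of each group (n = 3) as black bars to the right of the points; both axes start at 0. Beta sums lie between 165 and 205 CPM, whereas gamma sums run from 109 to 680 CPM with overlapping groups.

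Spread within groups set the gamma rows apart from the beta rows. Spread was measured as the log2 range of CPM plus 0.5 over the 3 libraries of a group, in the group where it was larger. All 8 tested gamma rows exceeded 1 log2 unit, from 1.01 for Pcdhgc5 to 6.99 for Pcdhga6. None of the 19 tested beta rows did, with ranges of 0.12 for Pcdhb22 to 0.91 for Pcdhb8. Of the tested rows with 20 or more mean counts, all 6 gamma rows and 0 of 19 beta rows exceeded it, where 3.26% of the tested genes with such counts did. Among all 14605 genes tested 4% exceeded 1 log2 unit, and the median range was 0.29, against 0.36 for tested beta rows and 3.81 for tested gamma rows. These counts leave out the rows that failed the filter, of which Pcdhb21 and Pcdhga10 had a single high library each and ranges of 4.66 and 4.67 log2 units.

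Among tested genes outside the family, 16.2% of the 167 genes with 30 to 70% of their exonic bases shared with another gene in GENCODE M21 exceeded 1 log2 unit, against 3.1% of the 12856 genes that share none. The part of exon sharing in the spread of the gamma rows was not tested. With 2 as the pseudocount 5 of the 8 gamma rows exceeded 1 log2 unit, and with 0.1 so did 2 of the 19 beta rows.

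**Figure D4:**
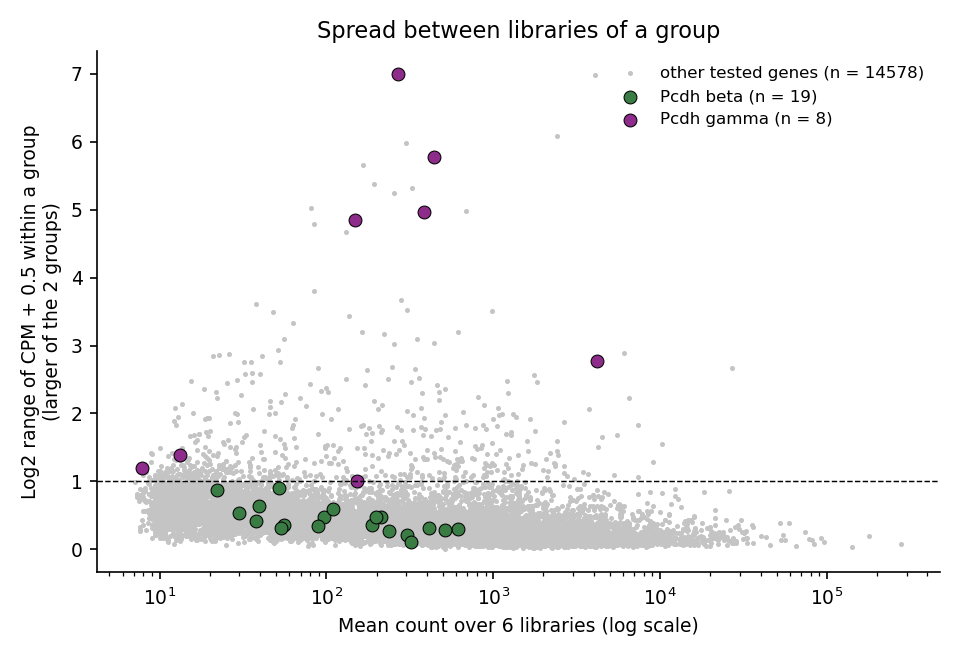
Log2 range of CPM plus 0.5 within a group (the larger of both groups) against the mean count over 6 libraries on a log axis, for each of 14605 tested genes; green points are the 19 tested beta rows and purple points the 8 tested gamma rows, and the dashed line marks 1 log2 unit. Beta rows lie among the other genes, and gamma rows lie on or above the line, up to 6.99 for Pcdhga6.

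The comparison of the labels asked whether transcript levels differed between Ov_SNHG1 and Vector. No member passed the edgeR threshold: 0 of 27 tested rows were called, with a smallest adjusted p of 0.171, where 2.4% of all genes tested were called, 1.54% higher and 0.856% lower. At an unadjusted p under 0.05 there were 7 members, all lower in Ov_SNHG1, where 17% of all genes passed that mark and 8.71% did so with lower values. DESeq2 called 1 member, Pcdhgc5, where it called 5.4% of the genes it adjusted. It gave no adjusted p for Pcdhb6, Pcdhga3, Pcdhga4, Pcdhga6 and Pcdhgc4. The groups did not overlap in 4 of the 27 tested members (Pcdhb11, Pcdhb15, Pcdhb22 and Pcdhgc5) and in 23.7% of all genes tested.

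Most tested beta rows had slightly lower values in Ov_SNHG1, none of them past the threshold. The log2 fold change was below 0 in 17 of the 19, as it was in 48.7% of all genes tested, and its median was -0.16 against 0.0065 for all genes. With a library left out the median of the beta rows ran from -0.30, without Ov_SNHG1 replicate 1, to -0.135. These rows come from the same 6 libraries and are no replicates of each other. Pcdhb15 stood at 8.99, 8.60 and 8.15 CPM in Ov_SNHG1 and 10.7, 9.74 and 12.6 CPM in Vector, with a log2 fold change of -0.36 ± 0.13 (SE) and an edgeR adjusted p of 0.2. Pcdhb11 stood at 2.47, 2.61 and 2.08 CPM against 2.95, 3.81 and 3.04 CPM (log2 fold change -0.44 ± 0.18 SE, edgeR adjusted p = 0.267). In both rows every Ov_SNHG1 library was below every Vector library. Pcdhb8 had the lowest beta value, -0.73 ± 0.29 (SE, edgeR adjusted p = 0.249), with 44, 42 and 35 counts against 84, 30 and 75, or 2.26, 2.00 and 1.82 CPM against 4.00, 1.94 and 4.07 CPM, so that Vector replicate 2 lay within the Ov_SNHG1 range. The 4 beta rows of highest CPM gave narrow intervals, -0.41 to 0.038 for Pcdhb16, -0.31 to 0.14 for Pcdhb5, -0.48 to 0.020 for Pcdhb17 and -0.31 to 0.082 for Pcdhb22, all on the log2 scale. Pcdhb8, Pcdhb11 and Pcdhb15, like the gamma rows Pcdhga3, Pcdhga4, Pcdhga11, Pcdhgb6 and Pcdhgc5, were named after their values were seen.

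Several gamma rows had large fitted values that moved far when a single library was left out. Pcdhga6, Pcdhgc4 and Pcdhga1 had log2 fold changes of -5.90 ± 2.01, -3.93 ± 1.57 and -3.19 ± 1.07 (SE), with edgeR adjusted p of 0.193, 0.258 and 0.186. Without Vector replicate 2 they were -0.71, 0.56 and -1.75. Pcdhgc3 was at 1.42 ± 0.63 (SE, edgeR adjusted p = 0.306) and at 0.26 without Ov_SNHG1 replicate 3. Pcdhga3, with 40, 10 and 11 counts in Ov_SNHG1 and 4, 2 and 12 in Vector, was at 1.63 ± 0.76 (SE, edgeR adjusted p = 0.321). Without Ov_SNHG1 replicate 1 it was at 0.66, and without Vector replicate 3 at 2.60. Pcdhgb8 was at -0.032 (95% interval -2.45 to 2.38) and Pcdhga4, with 0 to 12 counts per library, at 0.032 (-1.79 to 1.85), so both intervals are wide in either direction.

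Pcdhgc5 came closest to the threshold among all members. Its log2 fold change was -0.86 ± 0.27 (SE, 95% interval -1.50 to -0.23), with an edgeR adjusted p of 0.171 and a DESeq2 adjusted p of 0.0417, the lowest of a range up to 0.371 over all alternatives. All 3 Vector libraries exceeded all 3 Ov_SNHG1 libraries, and Vector replicate 1, at 15.0 CPM, was the highest by far. Without that library the log2 fold change was -0.48. Like every gamma row it shares the constant exons.

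**Figure D5:**
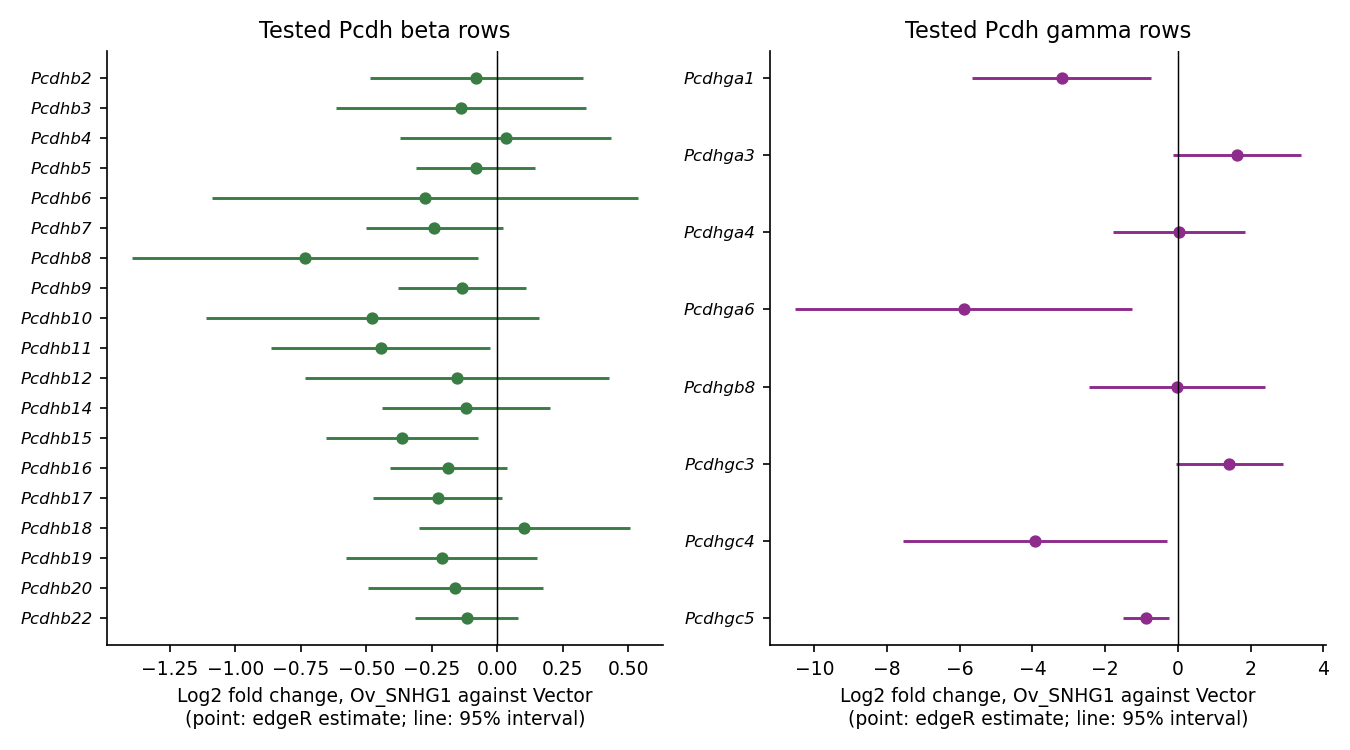
Log2 fold change of Ov_SNHG1 against Vector (point) with its 95% interval from the edgeR fit (line) for the 19 tested beta rows (left) and 8 tested gamma rows (right), in chromosomal order from the top; the x axes differ. Beta estimates lie between -0.73 and 0.10, and gamma estimates between -5.90 and 1.63 with wide intervals, and no row passed the adjusted threshold.

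Genes that shape the choice of protocadherin promoter were all expressed and did not pass. Of 26 listed regulators (CTCF, cohesin and its loaders and releasers, DNA methylation and demethylation enzymes and silencing factors) 26 were tested and 0 were called, with a median log2 fold change of -0.11. At an unadjusted p under 0.05 edgeR had 8, of which 7 were lower in Ov_SNHG1, and DESeq2 called 2, Stag2 and Tet2 (DESeq2 adjusted p = 0.0252 and 0.0374). Over all genes these shares were 17% at the unadjusted mark, 8.71% for lower values alone, and 5.4% for DESeq2. Ctcf, the insulator protein bound at these promoters, stood at 76.2 ± 2.06 CPM in Ov_SNHG1 and 76.4 ± 2.84 CPM in Vector (SD, n = 3), a log2 difference with a 95% interval of -0.13 to 0.13. Smchd1, a silencing factor that represses the clusters, stood at 118 ± 1.83 and 128 ± 2.89 CPM (edgeR adjusted p = 0.256), and the cohesin subunit Stag2 at 170 ± 15.6 and 207 ± 7.69 CPM (edgeR adjusted p = 0.105). Ctcf, Smchd1, Stag2 and Tet2 were named after their values were seen.

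Among partners and processing enzymes of protocadherins, 1 gene changed. Adam10, the membrane protease that sheds the ectodomain of gamma protocadherins, fell. It stood at 187, 160 and 166 CPM in Ov_SNHG1 and 301, 309 and 271 CPM in Vector, with no overlap, a log2 fold change of -0.78 ± 0.08 (SE) and an edgeR adjusted p of 0.00232. It was the 1 decrease among 18 tested genes of a list of 22, with 0 increases and a median log2 fold change of -0.0050. The shares called over all genes tested were 0.856% lower and 1.54% higher. Ncstn and Aph1a, subunits of gamma-secretase, which makes the next cut, did not pass, at -4.4e-05 ± 0.06 and 0.076 ± 0.07 (log2, SE; edgeR adjusted p = 1 and 0.609). Both were named after their values were seen. The tested adhesion kinases and subunits of the actin-regulating WAVE complex did not pass either. Without Ov_SNHG1 replicate 3 and Vector replicate 2 together Adam10 was at -0.73, with an edgeR adjusted p of 0.0563.

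In the neighbourhood of the clusters Cd14 alone passed the threshold. Of 74 other rows within 500000 bases of the clusters 32 were tested, and 1 was called higher and 0 lower. Among all genes tested 1.54% were called higher and 0.856% lower. The 32 rows had a median log2 fold change of 0.079, with values above 0 in 20. At an unadjusted p under 0.05 there were 6 of them, all higher in Ov_SNHG1. That mark was passed by 17% of all genes in either direction. Lower values made up 8.71% of all genes, and the rest of the 17% had higher values. Cd14, a co-receptor for bacterial lipopolysaccharide, lies before the alpha cluster at 36858120 to 36859851 and rose by 0.76 ± 0.10 (log2, SE; edgeR adjusted p = 0.00728), from 14.9, 14.6 and 13.7 CPM in Vector to 22.04, 24.99 and 26.11 CPM in Ov_SNHG1. Without Ov_SNHG1 replicate 3 and Vector replicate 2 together it was at 0.72, with an edgeR adjusted p of 0.115. Cd14 is also 1 of the 9 blood cell markers. Of the 32 tested rows 3 exceeded 1 log2 unit within a group, Slc35a4, Maskbp3 and Eif4ebp3, where 4% of all genes tested did. Maskbp3 and Eif4ebp3 share 95.1 and 67.3% of their exonic bases with another gene. Slc35a4, the widest of the 3 with a range of 1.39 log2 units, shares none. BC037039, a long non-coding RNA on the opposite strand that overlaps the start of Pcdhgc3 in the table, had 260, 322 and 293 counts in Ov_SNHG1 and 217, 192 and 226 in Vector (edgeR adjusted p = 0.2), without the high library seen in Pcdhgc3. The strand setting of the counting is not stated, so reads of the overlapping pair cannot be told apart. Slc35a4, Maskbp3, Eif4ebp3 and BC037039 were named after their values were seen.

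Protocadherins outside the clusters were detected in part. Of 12 listed genes 3 were tested, 0 were called, and 5 had no counts. Pcdh19, a delta protocadherin, stood at 302 ± 39.5 CPM in Ov_SNHG1 and 376 ± 34.4 CPM in Vector (SD, n = 3; edgeR adjusted p = 0.182). Pcdh1, which lies beyond the gamma cluster, stood at 43.8 ± 3.46 and 38.3 ± 2.56 CPM, and Pcdh18 at 33.1 ± 4.04 and 37.7 ± 0.50 CPM (edgeR adjusted p = 0.293 and 0.36). None of the 3 exceeded 1 log2 unit within a group.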

How the data were processed

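The authors deposited 1 table with whole-number counts and FPKM values per gene and library. Poly(A)-selected, stranded, paired-end libraries were made, per the labels' protocols. The submitters' processing notes name HISAT2, SAMtools 1.3.1, StringTie and the human build GRCh38, although every member has a mouse identifier. Neither the counting step nor its strand setting is stated in these sources. Count divided by FPKM and library total gave the gene length behind the deposited FPKM. In 13 of the 17 member rows with counts and 2 or more transcripts in GENCODE M21 it matched, within 0.5%, the summed length of all transcripts, but not for Pcdhgc3, Pcdhgb8, Pcdhgc4 and Pcdhgc5. Over all rows with 20 or more mean counts 23.3% matched. Where lengths were summed over transcripts, FPKM is lower than a value per exonic length.

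Counts were tested with the edgeR 4.0.16 quasi-likelihood test in R 4.3.3 (TMM, default filterByExpr, group only, Benjamini-Hochberg over all 14605 genes tested, threshold 0.05). CPM values are TMM-scaled. No pair of replicates agreed within sampling noise (chi-square per degree of freedom 7.83 to 12.1). In simulated counts for this comparison (14426 genes tested) 73.5% of 98 genes changed 2-fold and 46.9% of 98 changed 1.5-fold were recovered. In the same simulation 10 unchanged genes were called. The changed genes were drawn at random from all genes, so these rates need not hold for the members. The median SE was 0.92 for tested gamma rows and 0.16 for tested beta rows, against 0.11 for all genes.

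Members and lists were chosen with earlier results of these data known. Named were members called, the 10 highest in CPM, the 3 highest per cluster in FPKM, the 5 widest in range with 20 or more mean counts, called list genes and Snhg1. Every other gene name was picked with its values in view. Alternatives were median-of-ratios factors, library totals, no filter, 1 CPM in 3 libraries, DESeq2 1.42.0, limma-voom (limma 3.58.1), a replicate block, each library left out, other pseudocounts and other lengths.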

Additional observations from a re-analysis of the deposited data

How the results depend on the processing

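The count of members called lower was 0 in edgeR, 1 with DESeq2 (Pcdhgc5) and 0 to 1 with a library left out, where Pcdhga1 passed without Vector replicate 3 at -3.76, with an edgeR adjusted p of 0.0428 that rose to 0.693 among its other settings. Regulators called lower were 2 with DESeq2 and 0 to 1 with a library left out, and other protocadherins 0 to 1, in both lists without Ov_SNHG1 replicate 1. Without Ov_SNHG1 replicate 3 and Vector replicate 2 together, an alternative chosen after the data were seen, 0 partners and 0 neighbours were called. With a library left out the gamma sum ran from -0.48 to 1.13, the gamma median from -0.83 to 0.49, Pcdhb2 from -0.15 to 0.051, Pcdhb4 from -0.14 to 0.18, Pcdhb12 from -0.36 to 0.038, Pcdhb14 from -0.24 to 0.0061, Pcdhb18 from -0.080 to 0.20, Pcdhga4 from -0.63 to 0.54, Pcdhgb8 from -0.79 to 2.34 and Pcdhgc4 from -4.64 to 0.56 (log2). Pcdhga4 was at -0.016 with DESeq2. Pcdhgb8 was at 1.34 with limma-voom and 0.74 with the replicate block. With both libraries left out Pcdhb14 was at 0.035, Pcdhgb8 at 2.71 and Pcdhgc4 at 0.79.

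The replicate numbers did not pair the libraries, with correlations of deviations of -0.0041, -0.030 and -0.021 for numbers 1 to 3, and with the replicate block 0 members were called. Rows over 1 log2 unit within a group numbered 2 of 19 for beta with a pseudocount of 0.1, and 5 of 8 for gamma with 2. Per exonic kilobase of GENCODE M21, also chosen after the data were seen, Pcdhgc3 was at 39.1 CPM in place of 22.6 FPKM, the mean of 6 libraries. Pcdhga4, with 47 counts in all, had a 95% interval of -1.79 to 1.85 (log2), and Pcdhgb8, with 2314 counts, one of -2.45 to 2.38. The part of depth in the width of these intervals was not tested.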
